A study of Danio rerio with 2 samples.

Results

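The complement genes c1qa, c1qb, c1qc, c4b, c6 and c7b were followed through single-cell RNA libraries of the regenerating zebrafish heart. The 6 symbols were matched exactly in the gene table of both libraries and stood on 7 of its 32057 identifiers, because c6 has 2 identifiers. These are named c6.1 (ENSDARG00000093052) and c6.2 (ENSDARG00000057113) in the reference gene names and were kept apart. The border zone and injured tissue of the ventricle was collected at 120 hours post-cryoinjury from cd74a;cd74b double mutants and from wild-type fish. Fish were adults of the AB strain, and mutants carried CRISPR-Cas9 alleles of cd74a (bns454) and of cd74b (bns456). CD74 is the chaperone that guides MHC class II molecules in antigen presenting cells. Each genotype had 1 library, made from the pooled tissue of 4 ventricles from 2 females and 2 males, so that genotype, pool and library cannot be told apart and no test between genotypes was possible. All intervals below are 95% intervals for counting error within these libraries. No fish without injury was included.

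Complement is a cascade of plasma proteins that marks damaged cells and microbes. C1q, built of A, B and C chains encoded by c1qa, c1qb and c1qc, recognises targets at the start of the classical pathway, and in mammals it is made mainly by macrophages. C4, encoded by c4b and its relative c4, is cleaved next and attaches to the target. C6 and C7 act at the end of the cascade, where they join the membrane attack complex. In mammals, the liver secretes most of the circulating components after C1q.

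The mutant library held 22991961 unique molecular identifiers (UMIs) in 15142 barcodes and the wild-type library 7395919 UMIs in 4607 barcodes. Barcodes with more than 300 genes and at most 70% mitochondrial UMIs were kept, which left 7174 mutant cells (47.4%) and 3589 wild-type cells (77.9%). The other barcodes failed the gene or the mitochondrial cut. Whether they held cells or free RNA was not tested, so their levels below are no measure of background alone. Kept cells had a median of 1049 non-mitochondrial UMIs in the mutant library and 1107 in the wild-type library. The libraries shared 7 kept barcodes. The targeted genes followed the labels, with cd74a at 86.9 UMIs per 1000000 non-mitochondrial UMIs (CPM) in mutant cells against 1170 CPM in wild-type cells, and cd74b at 49.8 CPM against 496 CPM. Levels in the mutant library were lower for most genes, and the median gene had a mutant over wild-type log2 ratio of -0.51 in the macrophage-like class and of -0.51 in the fibroblast-like class. Log2 ratios between genotypes below are always mutant over wild type.

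Cells were clustered without the complement genes, and classes were named from marker genes. Macrophage-like cells numbered 1076 in the mutant and 921 in the wild-type library, and fibroblast-like cells 1239 and 1177. The libraries filled these classes from different clusters. Cluster 4 held 1041 mutant and 176 wild-type macrophage-like cells, whereas cluster 8, led by jac genes, held 35 mutant and 745 wild-type cells. Among fibroblast-like cells, cluster 1 held 427 mutant and 1163 wild-type cells and cluster 6 held 812 mutant and 14 wild-type cells. Fibroblast markers made up 1.83% of the UMIs of fibroblast-like cells in the mutant and 2.85% in the wild-type library. In macrophage-like cells they made up 0.109% and 0.112%. Macrophage markers made up 1.64% of the UMIs of macrophage-like cells in the mutant and 2.55% in the wild-type library, against 0.0528% and 0.0679% in fibroblast-like cells. The neutrophil list and the T or NK cell list were also higher in macrophage-like cells. Both share ptprc and coro1a with the macrophage list, and ptprc alone had 222 UMIs in mutant and 408 in wild-type macrophage-like cells. The neutrophil list made up 0.0876% of UMIs in mutant and 0.130% in wild-type macrophage-like cells, against 0.0217% and 0.0124% in fibroblast-like cells, with its defining gene mpx at 0 and 2 UMIs in macrophage-like cells. The T or NK cell list made up 0.0631% and 0.117%, against 0.00412% and 0.00566%. The part of the shared genes in these shares, and of other blood cells in the values below, was not tested.

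Among the named classes, the C1q chain genes were highest in macrophage-like cells and c4b and both c6 identifiers in fibroblast-like and epithelial-like cells. In the wild-type library c6.1 was 31.9 CPM in fibroblast-like and 37.0 CPM in epithelial-like cells, near the 32.5 CPM of barcodes that were not kept. Macrophage-like cells carried 64.5% of the c1qa, 68.5% of the c1qb and 68.5% of the c1qc UMIs of all kept mutant cells, and 85.7%, 90.1% and 90.5% of those of wild-type cells. Fibroblast-like cells carried 48.4% of the c4b, 50.7% of the c6.1 and 52.0% of the c6.2 UMIs in the mutant library, and 65.4%, 64.4% and 61.8% in the wild-type library. Outside the named classes, clusters 2, 3 and 9 held 946, 770 and 1276 of the 12149 C1q UMIs of kept mutant cells. They held 121, 87 and 85 of the 10199 C1q UMIs of kept wild-type cells. These clusters had 1401, 1181 and 536 mutant cells but 118, 50 and 38 wild-type cells. The shares above therefore depend on which clusters were named. In the mutant library cluster 3 held 94 c4b, 116 c6.1 and 518 c6.2 UMIs. Their mutant levels there were 70.2, 86.6 and 387 CPM, and the wild-type cells held 10, 0 and 25 UMIs.

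In the mutant library c1qb stood at 2333 CPM (3802 UMIs) in macrophage-like cells against 46.4 CPM (117 UMIs) in fibroblast-like cells. In the wild-type library it stood at 3225 CPM (3793 UMIs) and 52.3 CPM (110 UMIs). The log2 ratio of macrophage-like over fibroblast-like cells was 5.47 for c1qa, 5.65 for c1qb and 5.58 for c1qc in the mutant library, and 5.46, 5.95 and 6.23 in the wild-type library. For c4b the same ratio was -5.44 (-7.72 to -3.87) in the mutant library, where macrophage-like cells had only 3 UMIs, and -3.93 (-4.82 to -3.17) in the wild-type library. For c6.1 it was -3.60 and -4.23, and for c6.2 -3.83 and -3.74. The 3 C1q chain genes were among the 260 of 3302 genes (7.87%) at least 4-fold higher in macrophage-like cells in both libraries, and c4b, c6.1 and c6.2 among the 354 (10.7%) at least 4-fold lower. At most 1.39% of the genes compared had a ratio as high as that of any of the C1q genes. The members were chosen with earlier results of these data known, so these positions are a description and no test.

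**Figure D1:**
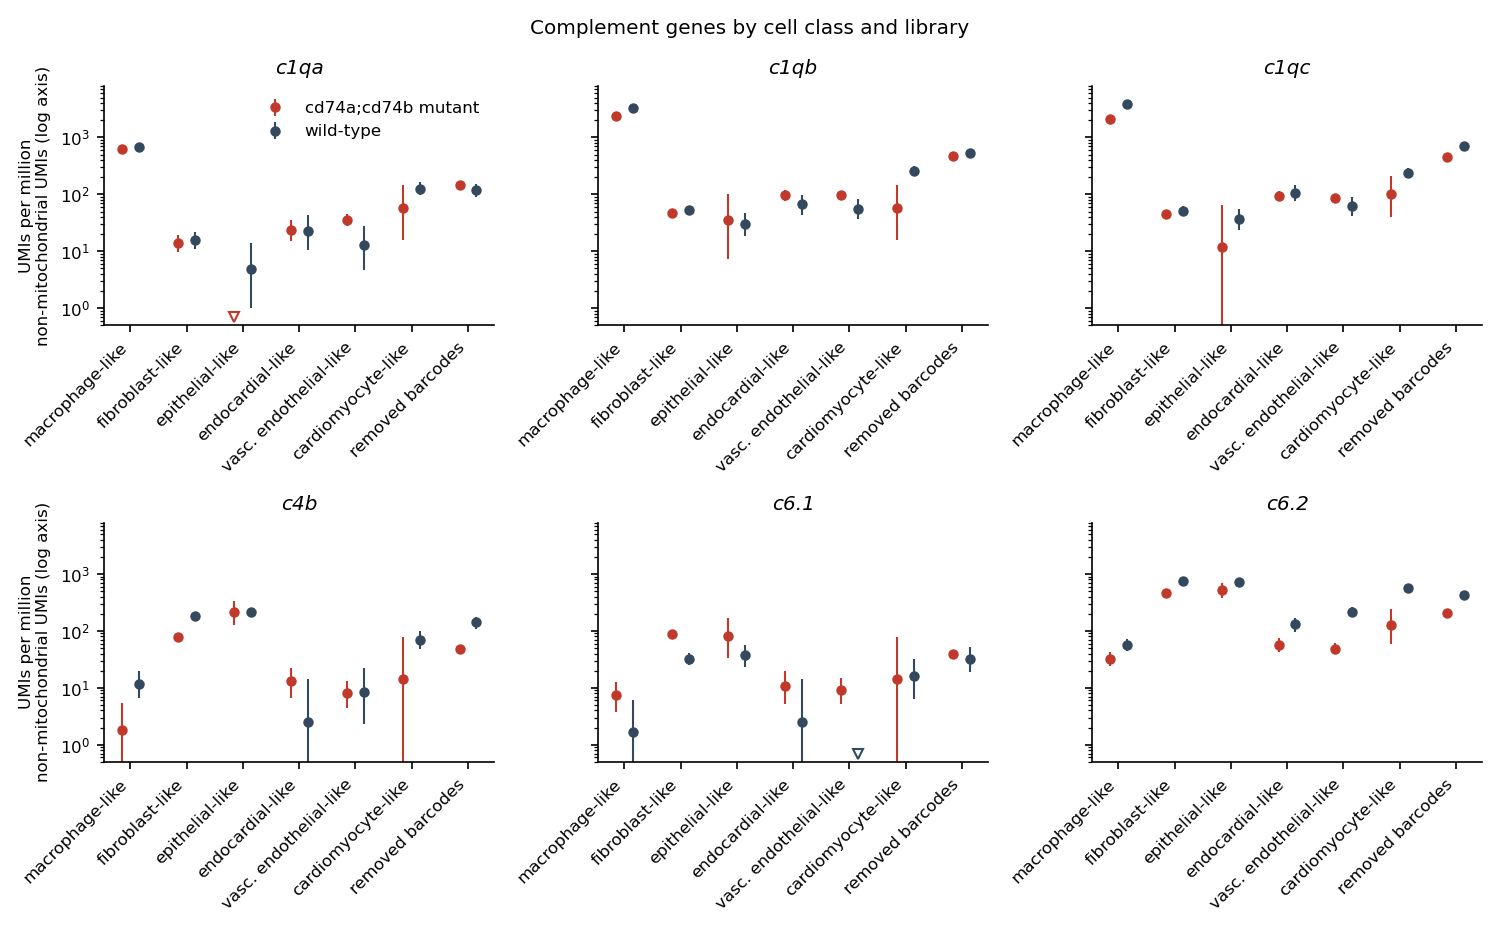
Level in CPM (log axis) of c1qa, c1qb, c1qc, c4b, c6.1 and c6.2 in each cell class and in the barcodes that were not kept, in the cd74a;cd74b mutant library (red) and the wild-type library (dark blue). Points are summed counts with exact Poisson 95% intervals, and open triangles mark sums of 0. The C1q genes peak in macrophage-like cells, while c4b and c6.2 are highest in fibroblast-like and epithelial-like cells.

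Within macrophage-like cells, the C1q chain genes were lower in the mutant library, and unequally so. The level of c1qc, which encodes the C chain, was 2121 CPM in mutant cells (3457 UMIs) against 3879 CPM in wild-type cells (4562 UMIs), a log2 ratio of -0.87 (-0.94 to -0.81). For c1qb, encoding the B chain, the ratio was -0.47 (-0.53 to -0.40), close to the median of all genes. The A chain gene c1qa had 615 CPM in mutant and 692 CPM in wild-type cells, a ratio of -0.17 (-0.30 to -0.03), above that median. None of the 3 passed 2-fold, which 50 of 2912 genes (1.72%) did upwards and 610 (20.9%) downwards. When scaled by the median gene, c1qa and c1qb turned to 0.34 and 0.04, and c1qc stayed below 0 at -0.36.

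The ratio of c1qc to c1qb does not depend on the scaling of a library. In mutant macrophage-like cells its log2 value was -0.14 (-0.20 to -0.07), and in wild-type cells it was 0.27 (0.20 to 0.33). The intervals did not overlap. Within cluster 4 alone the value was -0.12 in the mutant and 0.19 in the wild-type library, and in cluster 8 it was -0.66 and 0.28. Barcodes that were not kept had -0.04 (-0.14 to 0.06) in the mutant and 0.44 (0.20 to 0.67) in the wild-type library, the same order.

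The size of the difference varied with the cluster. Cluster 4 had a c1qb ratio of -0.13 (-0.26 to 0.01) and a c1qc ratio of -0.44 (-0.56 to -0.31), where the median gene had -0.37, so that c1qc lay near the median and c1qb above it. Cluster 8, with 35 mutant cells, had -0.50 (-0.76 to -0.25) for c1qb and -1.43 (-1.76 to -1.12) for c1qc, beside a median of -0.38. A finer clustering gave a leukocyte cluster with similar cell numbers in both libraries, 145 mutant and 152 wild-type cells, which stayed unnamed. In it 20 of 20 detected macrophage markers were over 2-fold. Its leading genes included cd7al and ccr9a of the T or NK cell list beside lgmn of the macrophage list. There c1qb was 1451 CPM in mutant and 1474 CPM in wild-type cells, and c1qc was 1473 and 2194 CPM, with ratios of -0.02 (-0.27 to 0.22) and -0.58 (-0.80 to -0.35), beside a median of -0.25. In each of these clusters c1qc was the lowest of the C1q genes relative to wild type.

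**Figure D2:**
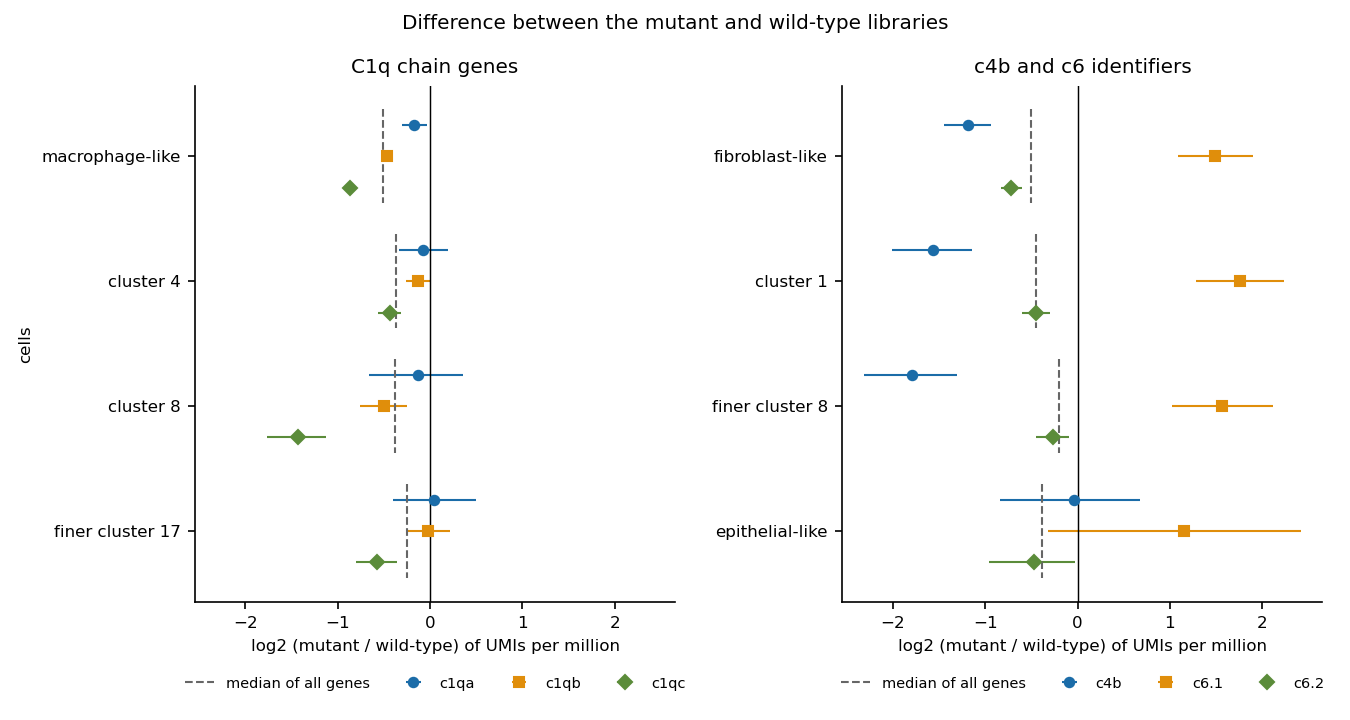
Log2 ratio of mutant over wild-type CPM with exact conditional 95% intervals for counting error. Left, c1qa, c1qb and c1qc in macrophage-like cells, in clusters 4 and 8 and in the finer leukocyte cluster 17. Right, c4b, c6.1 and c6.2 in fibroblast-like cells, cluster 1, the finer fibroblast-like cluster 8 and epithelial-like cells. Dashed lines give the median over genes that had 50 UMIs or more. The ratio of c1qc lies below those of c1qa and c1qb throughout, and c6.1 lies to the right of 0 while c4b lies to the left in the fibroblast-like groups.

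To compare single cells at equal depth, each cell was thinned to 500 non-mitochondrial UMIs. A c1qc UMI was then found in 632 of 1076 mutant macrophage-like cells (58.7%, 55.7 to 61.7%) and in 715 of 915 wild-type ones (78.1%, 75.3 to 80.8%). The shares for c1qb were 61.8% in mutant and 68.9% in wild-type cells, and for c1qa 25.0% and 28.3%. Without thinning, c1qc was found in 83.6% of mutant and 89.4% of wild-type cells. Fibroblast-like cells, where the C1q genes were low, gave thinned shares of 2.74% in mutant and 2.30% in wild-type cells for c1qc. Their median depths were 1553 and 1321 UMIs, against 1269 and 1086 UMIs in macrophage-like cells.

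At this depth, 12.2% of mutant and 19.1% of wild-type macrophage-like cells showed all 3 chain genes, and 15.1% and 10.5% showed none. Mutant cells showed a single chain gene in 36.3% and wild-type cells in 22.8%. Among cells with a c1qb UMI, 424 of 665 mutant cells (63.8%) also had a c1qc UMI, as did 542 of 630 wild-type cells (86.0%). Before thinning, the share with none was 4.55% in mutant and 4.02% in wild-type cells, so nearly all macrophage-like cells carried some C1q transcript in both libraries.

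**Figure D3:**
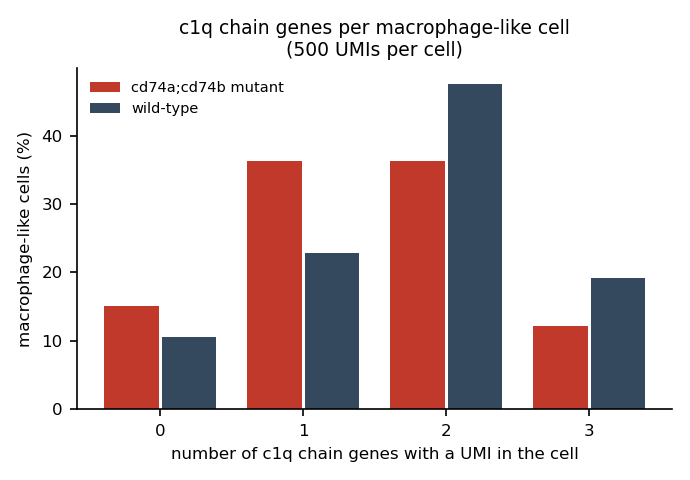
Share of macrophage-like cells (%) by the number of C1q chain genes, of c1qa, c1qb and c1qc, with at least 1 UMI after thinning every cell to 500 UMIs, in the mutant (red, left bars) and wild-type (dark blue, right bars) library. Cells with 0 or 1 chain gene have taller bars in the mutant library, and cells with 2 or 3 in the wild-type library.

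Fibroblast-like cells showed opposite differences in c4b and c6.1. The level of c4b was 79.6 CPM (201 UMIs) in mutant and 182 CPM (382 UMIs) in wild-type cells, a log2 ratio of -1.19 (-1.44 to -0.94). Barcodes that were not kept held 48.1 CPM of c4b in the mutant and 140 CPM in the wild-type library. Their c4b ratio was -1.55 (-1.96 to -1.12), so the difference was also seen in those barcodes. The level of c6.1 was 89.2 CPM (225 UMIs) in mutant and 31.9 CPM (67 UMIs) in wild-type cells, a ratio of 1.48 (1.08 to 1.90). The wild-type level was no higher than in wild-type barcodes that were not kept, which held 32.5 CPM (16 UMIs). Mutant barcodes that were not kept held 39.4 CPM (132 UMIs), a ratio of 0.28 (-0.48 to 1.13). For c6.2, the more abundant c6 identifier, the levels were 463 CPM (1169 UMIs) and 761 CPM (1599 UMIs), a ratio of -0.72 (-0.83 to -0.61). In barcodes that were not kept the c6.2 ratio was -1.09 (-1.31 to -0.86). The log2 ratio of c6.1 to c6.2, free of library scaling, was -2.38 (-2.59 to -2.17) in mutant and -4.58 (-4.95 to -4.22) in wild-type fibroblast-like cells. Barcodes that were not kept had -2.37 (-2.65 to -2.10) and -3.73 (-4.57 to -3.00), the same order. It was also -2.14 and -5.07 in macrophage-like, -2.65 and -4.27 in epithelial-like and -2.38 and -5.67 in endocardial-like cells. These had few wild-type c6.1 UMIs (2, 23 and 1). The unnamed cluster 2 had -2.63 and -2.64, with 4 wild-type c6.1 UMIs. The order was therefore not particular to fibroblast-like cells. Among 4247 genes in these cells 55 (1.3%) were at least 2-fold higher and 631 (14.9%) at least 2-fold lower in the mutant library. Fibroblast markers also took a smaller share of UMIs in mutant cells of this class, and their part in these ratios was not tested. Neither c4b nor c6.1 was past 2-fold under every setting. The ratio of c6.1 was 0.44 with classes from the finer clustering, and that of c4b was -0.68 when scaled by the median gene, -0.74 with cells thinned to equal depth and -0.83 with classes from marker UMIs.

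The clusters of this class were so unequally shared that the same genes were set side by side within cluster 1. There c4b had a ratio of -1.56 (-2.01 to -1.14), c6.1 of 1.76 (1.29 to 2.24) and c6.2 of -0.45 (-0.61 to -0.30), the last at the median of all genes in that cluster, -0.45. The wild-type c6.1 level in cluster 1, 32.1 CPM, was again no higher than in wild-type barcodes that were not kept. In cluster 1, 0.674% of genes were at least 2-fold higher and 14% at least 2-fold lower in the mutant library. The finer clustering isolated a fibroblast-like cluster of 185 mutant and 471 wild-type cells with the highest c6.2 level of the 24 finer clusters in both libraries. It held 39 of the 415 c4b UMIs of the mutant library and 320 of the 584 of the wild-type library. Its c4b level was 133 CPM in mutant and 460 CPM in wild-type cells, a ratio of -1.79 (-2.31 to -1.31). Its c6.2 level was 1212 CPM and 1458 CPM, a ratio of -0.27 (-0.45 to -0.09), and c6.1 reached 225 CPM and 76.2 CPM, a ratio of 1.56 (1.02 to 2.11). Of its genes 1.37% were at least 2-fold higher and 7.63% at least 2-fold lower in the mutant library.

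The split between the c6 identifiers is uncertain. In the gene order of the GRCz12tu assembly the spans of c7b and c6.2 overlap, c6.1 lies 2 protein-coding genes from c7b, and how reads shared by such neighbours or near copies were assigned is not given in the sources used here. The counts were made on another assembly, danRer11, so these spans may differ from those used in counting. The sum of both identifiers was 552 CPM in mutant and 792 CPM in wild-type fibroblast-like cells, a ratio of -0.52 (-0.62 to -0.42), and in the finer fibroblast-like cluster it was -0.09 (-0.26 to 0.07). In fibroblast-like cells c6.2 supplied 1169 of the 1394 UMIs of the sum in the mutant and 1599 of the 1666 in the wild-type library. The sum therefore mostly follows c6.2 and says little about the higher c6.1 of the mutant library. The last member, c7b, was too sparse to describe, with 12 UMIs in mutant and 18 in wild-type kept cells.

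At equal depth, a c4b UMI was found in 4.68% of mutant and 7.68% of wild-type fibroblast-like cells. For c6.1 the shares were 6.46% and 1.71%, and for c6.2 21.9% and 29.7%. Macrophage-like cells, where these genes were low, gave 0.0929% and 0.656% for c4b and 1.39% and 2.73% for c6.2. Cells with c4b often also had c6.2, which was found in 31 of 58 mutant (53.4%) and 50 of 90 wild-type cells (55.6%) with a c4b UMI, against 20.3% and 27.5% of cells without one. Within the finer fibroblast-like cluster the contrast was smaller, with 46.7% (7 of 15) against 43.5% in mutant and 61.3% (46 of 75) against 45.2% in wild-type cells.

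**Figure D4:**
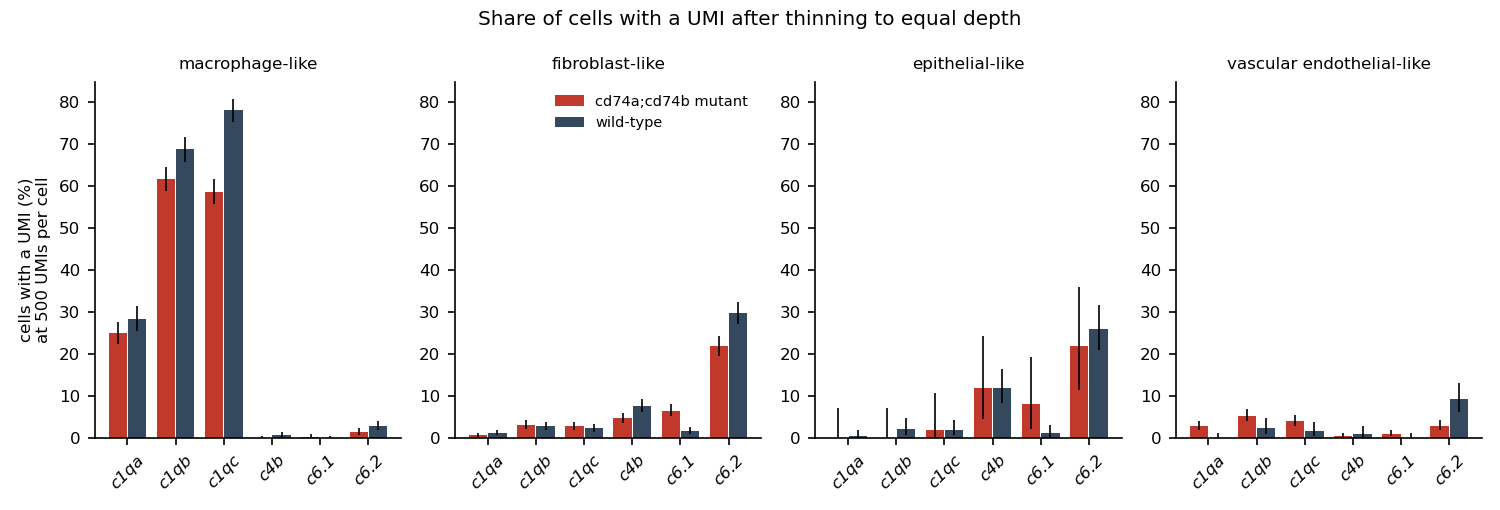
Share of cells (%) with at least 1 UMI of each gene after thinning to 500 UMIs per cell, in macrophage-like, fibroblast-like, epithelial-like and vascular endothelial-like cells of the mutant (red, left bars) and wild-type (dark blue, right bars) library, with exact binomial 95% intervals. Macrophage-like cells stand apart for the C1q genes, and c6.1 is the only gene of the fibroblast-like panel whose mutant bar lies clearly above the wild-type bar.

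Epithelial-like cells, a class of 50 mutant and 278 wild-type cells, resembled fibroblast-like cells in these genes. Their c4b level was 211 CPM (18 UMIs) in mutant and 217 CPM (135 UMIs) in wild-type cells, a ratio of -0.04 (-0.84 to 0.67). Their c6.2 level was 515 CPM and 715 CPM, a ratio of -0.47 (-0.96 to -0.03). Both depended on which cells were included. The epithelial-like cluster of the finer clustering held 175 mutant and 273 wild-type cells, and its ratio was -0.57 (-1.09 to -0.07) for c4b, with 143 CPM in mutant and 212 CPM in wild-type cells, and -1.09 (-1.41 to -0.78) for c6.2. In the smaller class, fibroblast markers made up 1.06% of the UMIs in the mutant and 1.45% in the wild-type library. Epicardial markers made up 0.948% and 1.74%, against 0.796% and 1.07% in fibroblast-like cells. The name of the class rests on 3 detected epithelial markers. The part of fibroblasts or epicardial cells in these values was not tested.

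In the other classes the members except c7b were at or below the level of barcodes that were not kept, with exceptions in wild-type cardiomyocyte-like cells. Those barcodes held 472 CPM of c1qb in the mutant and 529 CPM in the wild-type library, and 203 CPM and 433 CPM of c6.2. All kept cells together had 552 and 775 CPM of c1qb, and 223 and 477 CPM of c6.2. Vascular endothelial-like cells had 97.8 CPM of c1qb in the mutant and 55.9 CPM in the wild-type library, and endocardial-like cells 96.4 and 66.5 CPM. Vascular endothelial-like cells also had 48.6 CPM of c6.2 in the mutant and 213 CPM in the wild-type library, a ratio of -2.13 (-2.57 to -1.70). Of the clusters in this class, cluster 7, with 557 mutant and 226 wild-type cells, had a c6.2 ratio of -2.23 (-2.72 to -1.75), and cluster 10, with 381 and 84 cells, had -0.95 (-2.12 to 0.36). Fibroblast markers took 0.415% of their UMIs in the mutant and 0.721% in the wild-type library, and their part in the c6.2 ratio was not tested. Wild-type cardiomyocyte-like cells held 561 CPM of c6.2, against 129 CPM in the 53 mutant cells, and fibroblast markers took 2.06% of their UMIs against 0.376% in mutant cells. The unnamed cluster 2 (1401 mutant and 118 wild-type cells) also had 14 of 14 detected cardiomyocyte markers over 2-fold. It held c6.2 at 229 CPM in mutant and 328 CPM in wild-type cells.

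The C1q genes and the sum of c4b and c6 ordered the clusters along 1 scale. The log2 ratio of summed C1q UMIs over c4b and c6 UMIs was 6.92 (6.58 to 7.29) in mutant and 6.79 (6.48 to 7.12) in wild-type macrophage-like cells. It was -2.59 (-2.79 to -2.41) in mutant and -3.02 (-3.22 to -2.83) in wild-type fibroblast-like cells, and -4.11 and -3.74 in epithelial-like cells. Barcodes that were not kept lay between, at 1.89 in the mutant and 1.17 in the wild-type library. Vascular endothelial-like cells had 1.75 (1.45 to 2.07) in the mutant and -0.76 (-1.24 to -0.29) in the wild-type library. The signs differed in cluster 7, with 1.60 and -1.60, but not in cluster 10, with 2.07 and 1.74. Tags were counted near the transcript end and not scaled by length, so the ratio compares cell groups and not the abundance of the genes.

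**Figure D5:**
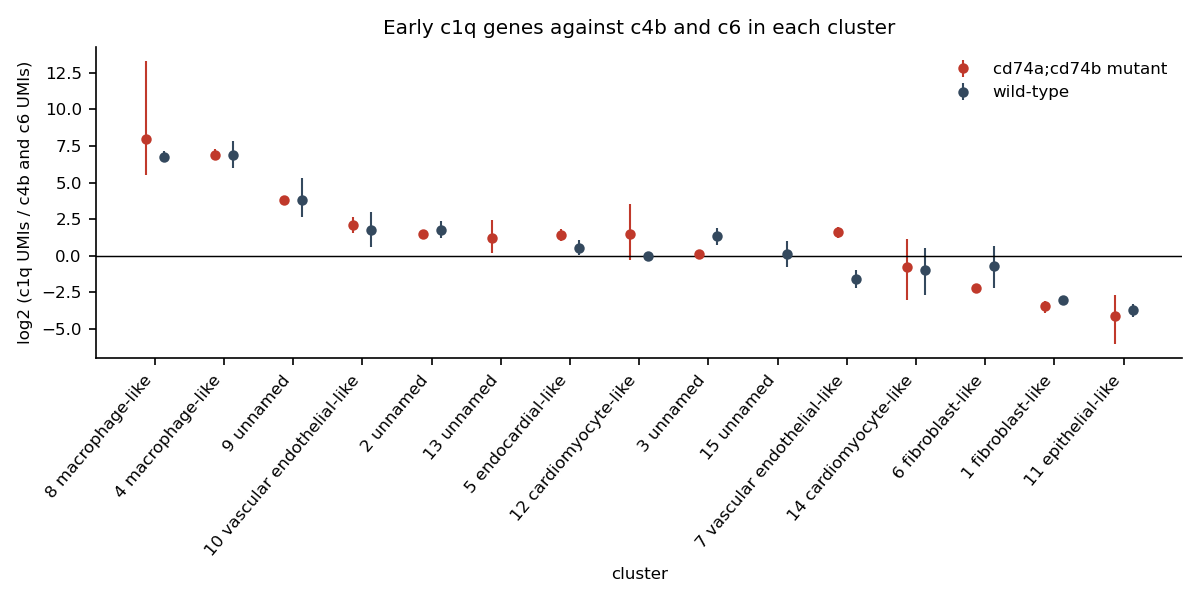
Log2 ratio of the summed UMIs of c1qa, c1qb and c1qc over those of c4b, c6.1 and c6.2 in each cluster, with exact 95% intervals, in the mutant (red) and wild-type (dark blue) library. Clusters 13 and 15 had cells in 1 library only. The macrophage-like clusters 4 and 8 lie at the top in both libraries and the fibroblast-like cluster 1 and the epithelial-like cluster 11 at the bottom.

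Of 60 further and member symbols of the complement list, 48 were in the gene table. Of the 42 identifiers that were no members, 10 had at least 50 UMIs over kept cells and 18 had none. In macrophage-like cells 4 of the others had at least 50 UMIs and 1 was at least 2-fold lower in the mutant library, beside 20.9% of all genes. This was cfp, which encodes properdin, the stabiliser of the alternative pathway convertase, with 130 CPM (212 UMIs) in mutant and 549 CPM (646 UMIs) in wild-type cells, a ratio of -2.08 (-2.31 to -1.85). Also in macrophage-like cells, clu, which encodes the complement inhibitor clusterin, had 92.0 and 82.5 CPM, and cfbl, a factor B relative, 54.6 and 61.2 CPM.

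In fibroblast-like cells, 8 of the others passed 50 UMIs, of which 0 were at least 2-fold higher and 2 at least 2-fold lower, beside 14.9% of all genes. The most abundant, clu, had 2338 CPM in mutant and 4352 CPM in wild-type cells, a ratio of -0.90 (-0.94 to -0.85). The other C4 gene, c4, had 52.7 and 123 CPM, a ratio of -1.23 (-1.54 to -0.92) close to that of c4b. The terminal component gene c7a, unlike c7b, was detected, with 63.4 CPM in mutant and 79.0 CPM in wild-type cells and a ratio of -0.32 (-0.64 to 0.01). The gene c3a.1, which encodes the central component C3, was named after its value was seen. In epithelial-like cells it had 1 UMI in mutant and 171 UMIs in wild-type cells, a ratio of -4.55 (-9.87 to -2.06). Its ratio was -1.82 in fibroblast-like cells and -3.17 (-3.63 to -2.74) over all kept cells. Barcodes that were not kept had -3.08, with 25 mutant and 31 wild-type UMIs. The difference was therefore not confined to epithelial-like cells.

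Genes with the most similar profiles over 19 combinations of class or unnamed cluster and library were looked up among 3977 genes, as a description. The profile of c1qb was closest to those of si:dkey-5n18.1 (r = 0.986), si:ch211-194m7.3 (0.982), mfap4 (0.977), c1qc (0.976) and si:dkey-262k9.4 (0.970). That of c4b was closest to cxcl12a (0.969), a chemokine gene, c4 (0.964), gstm.3, olfml3b and tgm2b. For c6.2 the list was olfml3b (0.960), col6a1, serpinh1b, sparc and col6a2, most of them extracellular matrix genes or genes of collagen folding. For c7b, with few UMIs, no value exceeded 0.829. The profiles share libraries and depth, and mfap4 was a marker used to name macrophage-like cells. Likewise, cxcl12a and sparc were on the fibroblast marker list and gstm.3 on the epicardial one.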

How the data were processed

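The deposited values were whole-number UMI counts per gene and barcode, which the authors made with STARsolo on danRer11, per the labels and the study's methods. The annotation release and barcode calling settings are not given in the sources used here. The 6 members and all lists were chosen with earlier results of these data known. Counts were clustered with scanpy 1.11.5 (2000 variable genes, 50 components, 15 neighbours, Leiden resolution 1, and 2 for finer clusters) without complement, cd74, mitochondrial and ribosomal protein genes. Of 15 clusters, 10 were named from marker lists, by thresholds set after seeing the clusters (at least 3 markers over 2-fold, median log2 fold of 0.5). The 5 unnamed clusters also passed both thresholds for some list. A name further needed a minimum share of the list over 2-fold and a median lead of 0.5 log2 over lists of other cell families. No other list could have more markers among the 10 leading genes. Shallow clusters without a leading marker got no name. Doublets were left in and no caller was used. UMIs were summed per class and library and scaled to 1000000 UMIs outside the 37 mitochondrial genes. Intervals (95%) were exact Poisson, conditional or Clopper-Pearson (scipy 1.17.1) and cover counting error only. The conditional intervals were tested on simulated Poisson counts, which cannot show the spread between cells or fish. The genes named were the members, the 3 other complement genes with the most UMIs in each of the macrophage-like and fibroblast-like classes, and the 5 closest profiles (log2 of CPM plus 10, genes with at least 200 UMIs). Exceptions named after their values were seen were c3a.1 and the targeted genes.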

Additional observations from a re-analysis of the deposited data

Results flagged for a closer look

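Some differences between the libraries had opposite signs in separate classes, each with an interval on its own side of 0. On the log2 scale, c1qb had a mutant over wild-type ratio of -0.47 in macrophage-like and -2.19 in cardiomyocyte-like cells, but of 0.81 in vascular endothelial-like cells. For c1qa it was -0.17 in macrophage-like and 1.48 in vascular endothelial-like cells. When scaled by the median gene, the macrophage-like values turned to 0.34 for c1qa and 0.04 for c1qb, so that their signs were no longer opposite to those in vascular endothelial-like cells. Within that class, c1qb had 1.38 in cluster 7 and -0.03 (-0.91 to 0.96) in cluster 10. The difference between classes was not tested, since each genotype had 1 library. The values in cardiomyocyte-like and vascular endothelial-like cells lie below the c1q level of barcodes that were not kept. They rest on few UMIs, with 4 mutant c1qb UMIs in cardiomyocyte-like cells and 6 wild-type c1qa UMIs in vascular endothelial-like cells. Most mutant cells of a cardiomyocyte kind may lie outside the named class. The unnamed cluster 2, with 14 of 14 detected cardiomyocyte markers over 2-fold, held 1401 mutant and 118 wild-type cells. Its c1qb level was 380 CPM (410 UMIs) in mutant and 696 CPM (53 UMIs) in wild-type cells, a ratio of -0.87 (-1.29 to -0.43).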

How the results depend on the processing

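No paired analysis was possible because each genotype had 1 library. Each comparison was repeated under up to 10 other settings and 2 chosen after seeing the data (clusters 4 and 1 alone, and cluster 3 joined to the fibroblast-like class), and the causes of the shifts were not tested. All log2 values of the sums, c4b, c6.1 and c6.2 kept their direction under every setting that gave a value, and the log2 c1qc to c1qb ratio of macrophage-like cells differed by -0.47 to -0.31 between mutant and wild type under 11 of 11 settings. Among these, scaling by the median gene cannot change a ratio of genes within the same cells. All settings used the same libraries. Leiden resolution 0.5 named no fibroblast-like class and so gave no value there. At that resolution a cluster of 512 mutant and 1443 wild-type cells was named epithelial-like on 3 detected markers. It was led by ptx3a, the gene that led the fibroblast-like cluster 1 of the main clustering. Another, of 1942 mutant and 59 wild-type cells, had 17 of 20 detected fibroblast markers over 2-fold and stayed unnamed. Scaling by the median gene ratio reversed c1qa to 0.34 and c1qb to 0.04 in macrophage-like cells.

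For the mutant over wild-type ratios, the C1q sum in macrophage-like cells (-0.62) became -0.71 with at least 300 genes and new clusters, -0.11 scaled by the median gene, -0.91 at Leiden resolution 2, -0.67 with classes from marker UMIs and -0.26 in cluster 4. For c4b (-1.19) the values were -0.68 by the median gene, -0.74 thinned, -2.34 at resolution 2, -0.83 from marker UMIs and -1.56 in cluster 1. For c6.1 (1.48) they were 1.99 by the median gene, 2.02 thinned, 0.44 at resolution 2 and 1.98 from marker UMIs. For c6.2 (-0.72) they were -0.59 with at least 300 genes, -0.21 by the median gene, -1.50 at resolution 2 and -0.45 in cluster 1.

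For macrophage-like over fibroblast-like cells, the C1q sum in the mutant library (5.60) became 6.12 with over 500 genes, 5.21 as a mean over cells, 5.16 thinned, 4.06 at resolution 2, 4.22 from marker UMIs, 5.33 without the 5% of cells with the most UMIs and 4.24 with cluster 3. In the wild-type library (6.02) it became 6.29 with over 500 genes, 5.68 as a mean over cells, 5.71 thinned, 5.56 at resolution 2, 6.36 from marker UMIs and 5.64 with cluster 3. The c4b and c6 sum in the mutant library (-3.92) became -3.40 with at least 300 genes, -4.58 thinned, -2.85 at resolution 2 and -2.88 from marker UMIs. In the wild-type library (-3.79) it became -4.75 at resolution 2 and -4.14 without the 5% of cells with the most UMIs.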

Other observations

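Members were also found in clusters that stayed unnamed. Cluster 9 had 536 mutant and 38 wild-type cells, with 15 of 20 detected macrophage markers over 2-fold. Its leading genes included ccr9a and nkl.1 of the T or NK cell list and hbba2 of the erythrocyte list. The median share of mitochondrial UMIs was 34.6%. The cluster held c1qb at 1201 CPM in mutant and 854 CPM in wild-type cells, and c1qc at 1014 and 1395 CPM. Their log2 ratios were 0.49 (-0.04 to 1.07) and -0.46 (-0.88 to -0.01), so c1qc was again the lower of the pair relative to wild type. Cluster 3, with 1181 mutant and 50 wild-type cells and cldn11a leading, held c6.1 at 86.6 CPM (116 UMIs) in mutant cells and at 0 UMIs in wild-type cells, with an upper limit of 61.6 CPM, and c6.2 at 387 and 417 CPM.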
